A study of Mus musculus with 15 samples.

Results

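Tumors of the UV2 melanoma line were compared with tumors of its parental line when both had been treated with anti-PD-1, an antibody against PD-1, which is an inhibitory receptor of T cells. The comparison rests on 6 of the 15 libraries of the study, 3 of UV2 tumors (replicates 1 to 3) and 3 of parental tumors (replicates 1 to 3), and covers all 23420 gene symbols of the deposited table. Both groups were grafts in female C57BL/6 mice aged 8 weeks that received 1000000 cells per flank, of D3UV2 (UV2) in the one group and of D4M.3A.3 (parental) in the other. Antibody was given on days 8, 10 and 12, and left-flank tumors were collected on day 13. The study's design text describes UV2 as carrying putative neoantigens induced by UVB light, so the comparison addresses how tumors of that line differ from those of its source under PD-1 blockade. Tumors of the same 2 lines given an isotype antibody, 3 libraries each, served as the matching comparison without PD-1 blockade. The labels name no animal for any library, so whether replicates were separate mice is unknown, and p-values reflect only how these samples spread, which may be technical. One line was set against 1 other, so effects of UVB and of these particular cultures cannot be told apart, and each library mixes grafted tumor cells with cells of the host.

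As background, T cells recognise mutant peptides carried to the cell surface by MHC molecules, and PD-1 on activated T cells dampens that response when it meets its ligand PD-L1. Interferon gamma from activated T and NK cells induces antigen presentation genes and the chemokines that draw further T cells into a tumor. Tumor cells in turn rely on growth signalling through the MAPK cascade, on glycolysis and on sterol synthesis, which is controlled by the transcription factor SREBP2.

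The values are TPM, a length-corrected transcript abundance that shares out a fixed total within each library, so they are relative levels, and the read depth behind them is unknown. Between 12376 and 12994 genes reached 1 TPM in the 6 libraries. Log2 levels correlated at 0.951 to 0.974 among the UV2 libraries, at 0.959 to 0.981 among the parental libraries and at 0.852 to 0.941 between the groups. Pigment cell markers were at or near 0 in both groups: Sox10, Pmel, Mlana and Dct did not exceed 1.60 TPM in any of these libraries, while Mitf lay between 6.98 and 11 TPM and Tyr between 2.06 and 4.57 TPM. The B cell marker Ms4a1 was also near 0, at most at 0.70 TPM. Some libraries carried markers of neighbouring tissue. UV2 replicate 3 held the skin keratin Krt14 at 69.5 TPM and Krt5 at 50.2 TPM, against at most 0.52 TPM for either in the other 5. UV2 replicate 1 held muscle actin, Acta1, at 0.36 TPM, against 116 to 311 TPM in the others. It also had the globin transcript Hba-a1 at 1206 TPM, against 50.4 to 261 TPM elsewhere. The adipocyte gene Adipoq stood at 36.1 TPM in UV2 replicate 1 and 71.3 TPM in parental replicate 1, against at most 9.64 TPM in the remaining libraries. The part of these tissues in the results was not tested, except that a fit with the muscle level as a covariate called 3695 genes.

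Genes were tested with limma on log2(TPM + 1), and called where the p, adjusted by Benjamini-Hochberg over the 13592 tested genes, was under 0.05. Tested were the genes with at least 1 TPM in at least 3 of the 15 libraries. A log2 fold change is on this scale, is positive where UV2 tumors were higher, and carries its standard error. Of the tested genes 3586 were called (26.4%), 1265 higher in UV2 tumors (9.31%) and 2321 lower (17.1%), and 6130 had an unadjusted p under 0.05. Among the genes called higher, 778 changed by more than 1 on the log2 scale and 159 by more than 2. Among those called lower, 1203 fell by more than 1 and 150 by more than 2. Of all tested genes, 16.9% had groups that did not overlap in the higher direction and 34.3% in the lower. This held for 1250 of the 1265 genes called higher and 2303 of the 2321 called lower. Separate groups, stated for single genes below, thus add little to a call. The median log2 fold change of all tested genes was -0.21, so list medians below are to be read against that value. The split moved with the scaling: with median-of-ratios scaling 1959 genes were higher and 1794 lower, around a median of 0.04, and quantile normalization gave 43.6% of its 4102 calls as higher, against 35.3% here.

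**Figure D1:**
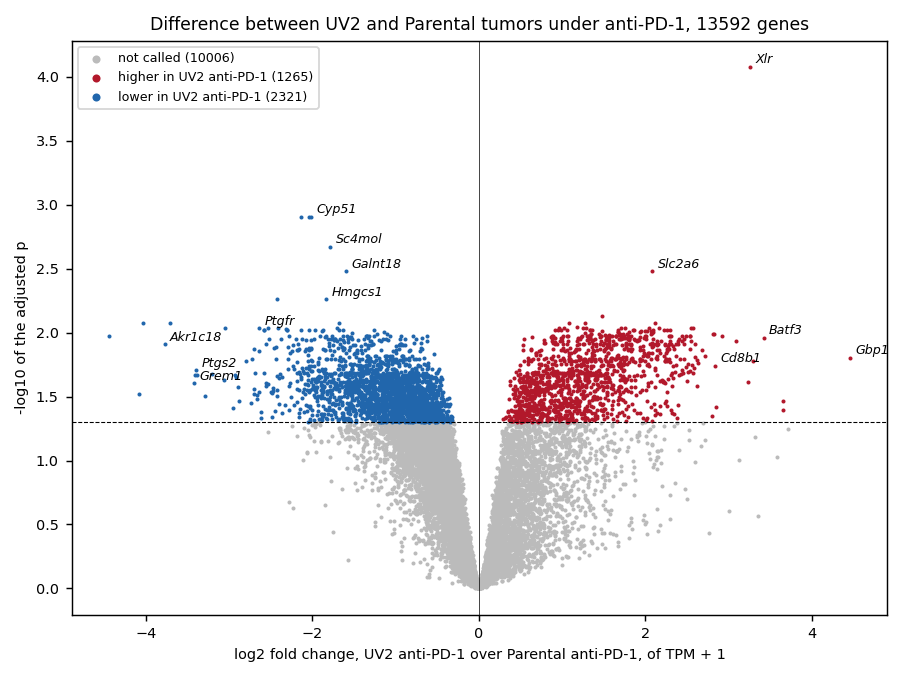
Log2 fold change of TPM + 1 (x axis) against -log10 of the adjusted p (y axis) for the 13592 tested genes, UV2 over parental tumors under anti-PD-1. Coloured points are the 1265 genes called higher and the 2321 called lower, the dashed line marks an adjusted p of 0.05, and Xlr stands above all other genes.

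Most of these calls depended on single libraries. Without UV2 replicate 3 the count was 9, and without parental replicate 3 it was also 9, against 1213 to 4074 when any other single library was left out. At the looser limit of an adjusted p under 0.1, 1274 genes were left without UV2 replicate 3 (9.37%) and 1411 without parental replicate 3 (10.4%), against 5815 with all libraries (42.8%). No gene called with all libraries changed sign when a library was left out. Except for 5 sterol synthesis genes and Xlr, no gene of any list described here passed the test without UV2 replicate 3 or without parental replicate 3, so the main groups below are given with their medians in one or both of those fits. With limma's library weights, which let libraries differ in their spread, 9262 genes were called, and list counts from that fit are not given below.

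A set of 8 genes passed with every single library left out: Xlr, Slc2a6, Galnt18 and the sterol synthesis genes Idi1, Sqle, Cyp51, Sc4mol and Hmgcs1. Slc2a6, Galnt18 and Hmgcs1 are named after their values were seen. Xlr (X-linked lymphocyte-regulated gene, chromosome X, 53777118 to 53797706) had 23.5, 28 and 29.6 TPM in the UV2 libraries, against 3.18, 1.46 and 1.40 TPM in the parental libraries. Its log2 fold change was 3.26 ± 0.25 (adjusted p = 8.36e-05). Slc2a6 (chromosome 2, 27021363 to 27027998), a sugar transporter of the lysosome, had 20.2, 9.83 and 19.8 TPM in the UV2 libraries, against 2.74, 3.70 and 2.60 TPM in the parental libraries, a log2 fold change of 2.08 ± 0.25 (adjusted p = 0.00332). Galnt18 (chromosome 7, 111471661 to 111779977), which belongs to the family of enzymes that start O-linked glycosylation, had 3.64, 4.16 and 2.68 TPM in the UV2 libraries, against 11.5, 13.9 and 11.9 TPM in the parental libraries, a log2 fold change of -1.59 ± 0.19 (adjusted p = 0.00332). In all 3 genes the groups were well apart, with UV2 libraries on top for Xlr and Slc2a6 and parental libraries on top for Galnt18. The isotype tumors showed the same order, with log2 fold changes of 3.86, 1.85 and -1.82, each called there too.

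Sterol synthesis genes were lower in UV2 tumors. Of 25 measured members of the cholesterol and mevalonate list 21 fell and 0 rose, with a median log2 fold change of -1.81. Their summed level was 576, 640.0 and 547 TPM in UV2 replicates 1 to 3, against 1749, 2012 and 1798 TPM in the parental replicates, so every UV2 library held less than every parental one. In bulk tumors, here and below, fewer cells of a type and less RNA per cell cannot be told apart. Idi1, the isomerase that makes the building block of the isoprenoids (chromosome 13, 8885501 to 8892451), had 17.1, 20.4 and 18.5 TPM in the UV2 libraries, against 75.0, 105 and 79.6 TPM in the parental libraries, and its log2 fold change was -2.14 ± 0.23 (adjusted p = 0.00125). Sqle, squalene epoxidase (chromosome 15, 59315077 to 59331192), had 21, 23.3 and 16.3 TPM in the UV2 libraries, against 81.5, 88.7 and 85.1 TPM in the parental libraries, with a log2 fold change of -2.04 ± 0.21 (adjusted p = 0.00125). Cyp51, the lanosterol demethylase (chromosome 5, 4081145 to 4104746), had 13.4, 17.9 and 13.4 TPM in the UV2 libraries, against 58.6, 70.0 and 59.8 TPM in the parental libraries, with a log2 fold change of -2.01 ± 0.20 (adjusted p = 0.00125). The replicates of each group agreed closely in these 3 genes, and the highest UV2 library was under the lowest parental one in each. Sc4mol (current name Msmo1, chromosome 8, 64718139 to 64733792), a sterol methyl oxidase, had 36.2, 50.7 and 38.3 TPM in the UV2 libraries, against 146, 139 and 149 TPM in the parental libraries, with a log2 fold change of -1.78 ± 0.20 (adjusted p = 0.00213). Hmgcs1, the cytosolic HMG-CoA synthase (chromosome 13, 119690379 to 119708260), had 32.6, 35.5 and 31.1 TPM in the UV2 libraries, against 112, 131 and 119 TPM in the parental libraries, with a log2 fold change of -1.84 ± 0.24 (adjusted p = 0.00547). The 4 members that did not pass were Mvk (-0.62, adjusted p = 0.0729), Pmvk (-0.19, adjusted p = 0.553), Tm7sf2 (-0.71, adjusted p = 0.105) and Ebp (0.31, adjusted p = 0.0853). The list median was -1.72 without UV2 replicate 3 and -1.84 without parental replicate 3, with 5 members called in each fit. It was -1.51 after centring on transcript length.

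Under the isotype antibody the same list had a median of -0.51 and 0 called genes. Idi1 there had 79.5, 61.2 and 52.9 TPM in UV2 isotype replicates 1 to 3, against 126, 109 and 83.0 TPM in parental isotype replicates 1 to 3, a log2 fold change of -0.71 (adjusted p = 0.123). The UV2 isotype libraries thus lay far nearer to the parental ones than the UV2 anti-PD-1 libraries did. The difference between the line effects under the 2 antibodies was -1.44 for Idi1 (unadjusted p = 0.000633), -1.54 for Sqle (unadjusted p = 0.000221), -1.28 for Cyp51 (unadjusted p = 0.000656) and -1.56 for Hmgcs1 (unadjusted p = 0.000470), all by limma. None of these passed adjustment over all genes, where the adjusted p was 0.800 for each. These genes were picked by their anti-PD-1 values, which enter this difference, so that choice favours small unadjusted p. The value for Sc4mol is not given here. Of 17 sterol genes with a promoter in the RefSeq table for GRCm38.p6, which holds 250 bases before to 50 after each start, 1 held the sterol regulatory element in the form TCACNCCAC on either strand (5.88%, against 1.36% of 10603 tested genes with a promoter). It was Hmgcs1, whose match is printed in capitals because this gene held its call in every fit that left out a library. The stretch is chr13:119690169-119690268, plus strand.
Hmgcs1: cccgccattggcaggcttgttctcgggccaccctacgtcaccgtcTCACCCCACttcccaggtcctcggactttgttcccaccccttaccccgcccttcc
A match of these letters describes the sequence and shows no binding, and the element was added to the search after the values of the list were seen.

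T cell genes were higher in UV2 tumors. Of 21 measured genes of the T cell receptor complex and its coreceptors 18 rose and 0 fell, with a median log2 fold change of 2.17. Summed, they stood at 1140, 954 and 1005 TPM in UV2 replicates 1 to 3, against 365, 265 and 153 TPM in the parental replicates. Cd8b1, one chain of the CD8 coreceptor of cytotoxic T cells (chromosome 6, 71322788 to 71337494), had 97.3, 70.6 and 65.5 TPM in the UV2 libraries, against 13.6, 13.7 and 4.99 TPM in the parental libraries, a log2 fold change of 2.83 ± 0.67 (adjusted p = 0.0181). Cd3e, a signalling chain of the T cell receptor (chromosome 9, 44998740 to 45009627), had 66.5, 39.0 and 35.1 TPM in the UV2 libraries, against 12.4, 14.4 and 3.77 TPM in the parental libraries, a log2 fold change of 2.21 ± 0.58 (adjusted p = 0.0241). In both genes parental replicate 3 was the lowest library and the groups did not overlap. Ptprcap, which binds the phosphatase CD45 (chromosome 19, 4153604 to 4156751), had 75.1, 62.6 and 105 TPM in the UV2 libraries, against 10.7, 12.4 and 4.32 TPM in the parental libraries, the largest log2 fold change of the list at 3.09 ± 0.60 (adjusted p = 0.0116). Cd4, the coreceptor of helper T cells, did not pass, with 12.1, 11.8 and 10.1 TPM in the UV2 libraries, against 11.2, 8.52 and 3.04 TPM in the parental libraries and overlapping groups (0.66 ± 0.52, adjusted p = 0.328). Themis, a T cell signalling gene, also did not pass. The list median was 2.18 without UV2 replicate 3 and 1.72 without parental replicate 3.

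Effector and checkpoint genes of T cells were higher too. Of 16 cytotoxic effector genes 9 rose and 0 fell (median 1.42). Ifng, the gene of interferon gamma, had 29.5, 18.8 and 30.9 TPM in the UV2 libraries, against 3.42, 5.12 and 5.12 TPM in the parental libraries, a log2 fold change of 2.29 ± 0.51 (adjusted p = 0.0160). Gzmb, a protease of cytotoxic granules, had 161, 78.8 and 167 TPM in the UV2 libraries, against 40.1, 28.9 and 37.4 TPM in the parental libraries, a log2 fold change of 1.84 ± 0.57 (adjusted p = 0.0359). Nkg7, a granule membrane protein, had 276, 199 and 254 TPM in the UV2 libraries, against 45.2, 53.4 and 20.2 TPM in the parental libraries, a log2 fold change of 2.68 ± 0.57 (adjusted p = 0.0137). The lowest UV2 library stood above the highest parental one in all 3. Prf1, the pore-forming perforin, had 65.5, 23.7 and 28.7 TPM in the UV2 libraries, against 23.4, 11.2 and 12.4 TPM in the parental libraries and did not pass (1.21 ± 0.54, adjusted p = 0.103). Of 11 inhibitory receptor genes 8 rose and 0 fell (median 1.41). Pdcd1, which encodes PD-1 itself (chromosome 1, 94038305 to 94052553), had 61.3, 35.7 and 34.4 TPM in the UV2 libraries, against 7.02, 15.6 and 4.58 TPM in the parental libraries, a log2 fold change of 2.26 ± 0.65 (adjusted p = 0.0291). Lag3 and Ctla4, 2 further brakes on T cells, rose by 2.24 ± 0.51 and 2.04 ± 0.44. Cd274, the gene of the ligand PD-L1, did not follow: it had 68.3, 31.2 and 45.6 TPM in the UV2 libraries, against 36.3, 31.9 and 57.5 TPM in the parental libraries, with overlapping groups (0.18 ± 0.42, adjusted p = 0.749). Among regulatory T cell genes 6 of 10 rose (median 1.33, 1.33 without UV2 replicate 3 and 1.07 without parental replicate 3). They included Foxp3, their defining transcription factor, with 5.27, 3.53 and 3.72 TPM in the UV2 libraries, against 2.08, 1.88 and 0.880 TPM in the parental libraries (1.00 ± 0.34, adjusted p = 0.0464). Foxp3 was called in only 7 of the 15 alternative fits that tested it, with an adjusted p by limma of up to 0.170. The anti-inflammatory cytokine gene Il10 rose by 2.09 ± 0.35. Of 15 T cell transcription factors 4 rose and 1 fell, among the 4 Tbx21, the regulator of type 1 responses (2.08 ± 0.45), Tox, which is linked to chronic stimulation (1.99 ± 0.50), and Batf (2.28 ± 0.46). Without UV2 replicate 3 the medians of the cytotoxic and inhibitory receptor lists were 1.43 and 1.42, and without parental replicate 3 they were 1.25 and 1.22.

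**Figure D2:**
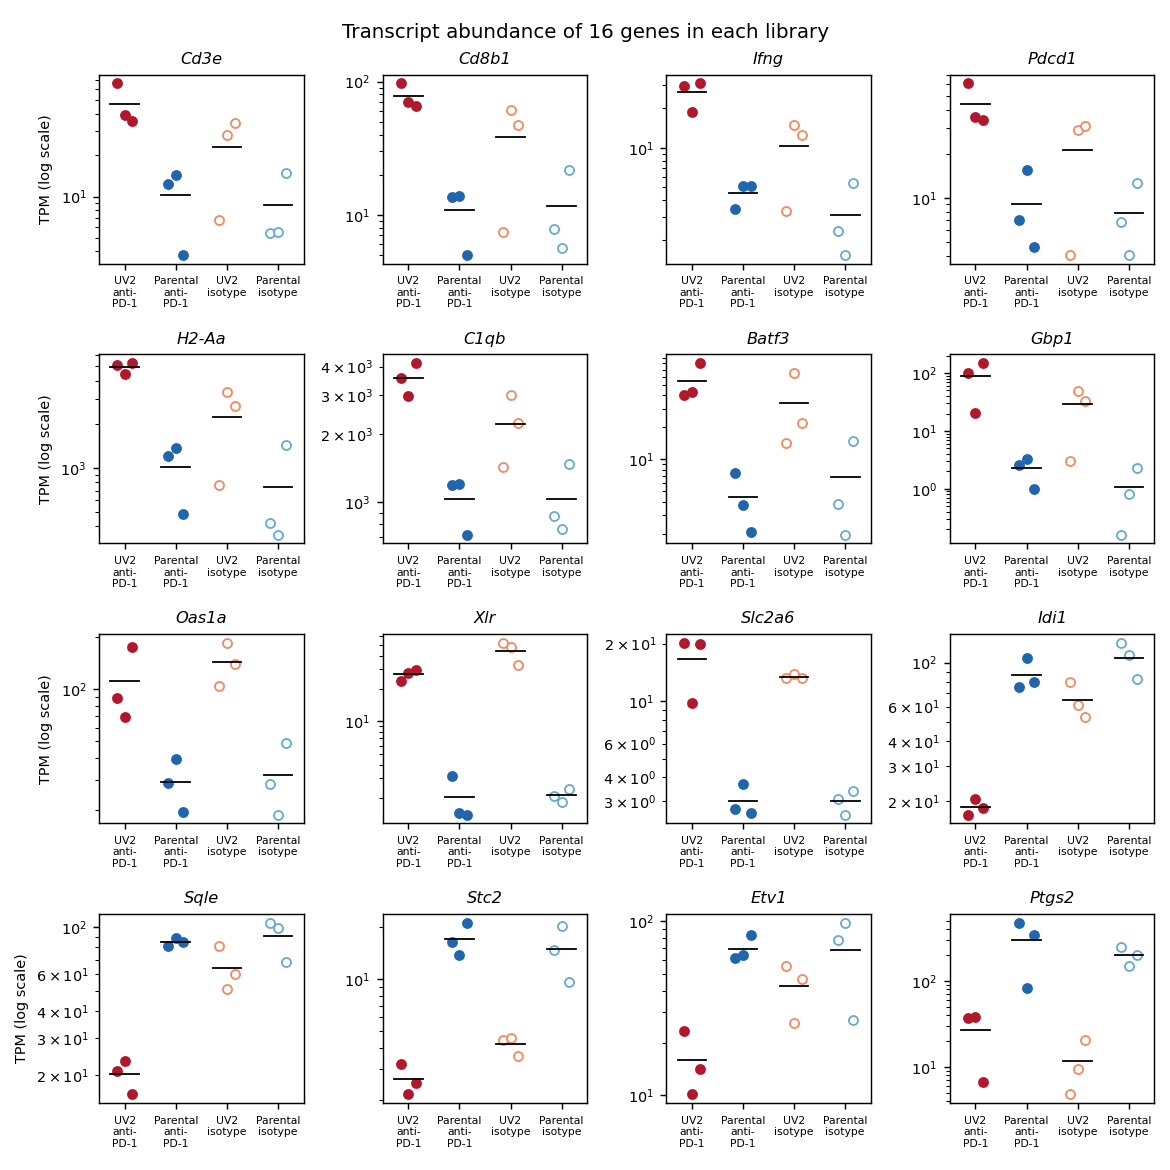
TPM on a log axis of selected genes in each library, UV2 anti-PD-1 left of parental anti-PD-1, followed by both isotype groups, with a bar at each group mean of 3 libraries. Cd8b1 lies between 65.5 and 97.3 TPM in the UV2 anti-PD-1 libraries, above all 3 parental ones, and Idi1 lies between 17.1 and 20.4 TPM, below all 3.

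NK cell genes rose in 10 of 18 cases and fell in 0, with a median of 1.35. Klrk1, which encodes the activating receptor NKG2D, had 35.6, 21 and 53.6 TPM in the UV2 libraries, against 7.86, 10.5 and 5.27 TPM in the parental libraries, a log2 fold change of 2.03 ± 0.47 (adjusted p = 0.0177). Ncr1, a marker specific to NK and related innate cells, was not called, and Klra family members are near copies of each other, so reads may have been divided among them. The NK median was 0.89 without UV2 replicate 3 and 1.26 without parental replicate 3. Of 11 B and plasma cell genes 1 rose, a share near the 9.31% of all tested genes. It was Cd79b, the signalling partner of the B cell receptor (2.20 ± 0.57), while the defining marker Ms4a1 was near 0 as given above.

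Macrophage and monocyte genes rose in 15 of 26 cases and fell in 0, with a median of 1.13, 1.26 without UV2 replicate 3 and 0.97 without parental replicate 3. Their summed level was 28738, 26702 and 27084 TPM in the UV2 libraries, against 12025, 11009 and 6979 TPM in the parental libraries. C1qc, a subunit of complement C1q made by tissue macrophages (chromosome 4, 136889804 to 136893065), had 2803, 2285 and 3288 TPM in the UV2 libraries, against 860.0, 946 and 544 TPM in the parental libraries, a log2 fold change of 1.86 ± 0.31 (adjusted p = 0.00957). Ccr2, the chemokine receptor that brings monocytes out of the blood, had 114, 79.6 and 106 TPM in the UV2 libraries, against 31.9, 18.4 and 13.0 TPM in the parental libraries, a log2 fold change of 2.26 ± 0.48 (adjusted p = 0.0140). Both genes were separated between the groups, as was Aif1 (2.40 ± 0.46), a calcium-binding protein of activated macrophages. The general myeloid genes Itgam, Cd14 and Cd68 were not called. Across the wider complement list 8 of 16 genes rose and 0 fell (median 1.39).

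Dendritic cell genes were higher as well, with 7 of 13 cross-presenting and 6 of 11 mature migratory dendritic cell genes called higher and 0 called lower in either list. With a minimum of 5 TPM the first of these lists had 4 called. Batf3, the transcription factor needed for cross-presenting dendritic cells (chromosome 1, 191097847 to 191108945), had 40.7, 42.9 and 80.8 TPM in the UV2 libraries, against 7.36, 3.74 and 2.09 TPM in the parental libraries, one of the largest changes of all at 3.42 ± 0.63 (adjusted p = 0.0110). Xcr1, the receptor that marks these cells, was low but separated, with 4.13, 2.19 and 4.60 TPM in the UV2 libraries, against 0.820, 0.550 and 0.360 TPM in the parental libraries (1.53 ± 0.29). Il12b, a subunit of interleukin 12 that drives interferon gamma production, had 6.72, 3.83 and 3.75 TPM in the UV2 libraries, against 0.300, 1.07 and 0.360 TPM in the parental libraries, a log2 fold change of 1.87 ± 0.30 (adjusted p = 0.00957). Ccr7, which guides mature dendritic cells to lymph nodes, rose by 1.69 ± 0.50. Both list medians, 0.99 and 0.77, stood above the -0.21 of all genes, and they were 1.01 and 1.02 without UV2 replicate 3.

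MHC class II genes, which present peptides to helper T cells, rose in 10 of 12 cases and fell in 0, with a median of 1.98, 1.80 without UV2 replicate 3 and 1.70 without parental replicate 3. Cd74, the invariant chain (chromosome 18, 60803848 to 60812652), was among the most abundant transcripts, with 12232, 9997 and 12617 TPM in the UV2 libraries, against 3105, 3208 and 1271 TPM in the parental libraries, a log2 fold change of 2.31 ± 0.58 (adjusted p = 0.0213). H2-Aa, a chain of the class II molecule itself (chromosome 17, 34282744 to 34287823), had 5113, 4408 and 5281 TPM in the UV2 libraries, against 1218, 1379 and 481 TPM in the parental libraries, a log2 fold change of 2.40 ± 0.60 (adjusted p = 0.0216). Every UV2 library was above every parental library in both. Ciita, the master regulator of the class, had 40.2, 13.2 and 16.7 TPM in the UV2 libraries, against 12.5, 9.53 and 5.16 TPM in the parental libraries and did not pass (1.19 ± 0.51, adjusted p = 0.0900). MHC class I genes, which present peptides to cytotoxic T cells, rose in 5 of 25 cases and fell in 1, with a median of 0.61, against 9.31% of all tested genes higher and 17.1% lower. The count higher was 2 without a filter on low values and 0 without parental replicate 1 (median 0.47). It was 9 with a minimum of 5 TPM and 9 with only the compared groups in the fit. Those that rose included Psmb10, a subunit of the immunoproteasome (1.5 ± 0.41), and the peptide transporter gene Tap2 (1.05 ± 0.33), and the one that fell was the chaperone gene Canx (-0.84 ± 0.22, -0.47 after centring on transcript length). The class I heavy chain gene H2-K1 had 3537, 2934 and 4830.1 TPM in the UV2 libraries, against 1989, 2529 and 2250.3 TPM in the parental libraries, without passing (0.72 ± 0.35, adjusted p = 0.125). The light chain gene B2m had 9856, 7983 and 13355 TPM in the UV2 libraries, against 7186, 8935 and 9013 TPM in the parental libraries, and its groups overlapped (0.29 ± 0.27, adjusted p = 0.425).

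Chemokine genes of the CC class rose in 11 of 22 cases and fell in 0, with a median of 1.79, and without a filter 7 rose. Ccl5, which draws T cells and monocytes, had 1390.0, 1297 and 1189 TPM in the UV2 libraries, against 244, 343 and 118 TPM in the parental libraries, a log2 fold change of 2.58 ± 0.61 (adjusted p = 0.0190). Ccl4, a chemoattractant of monocytes and T cells, had 213, 173 and 202 TPM in the UV2 libraries, against 37.2, 33.2 and 25.0 TPM in the parental libraries, a log2 fold change of 2.60 ± 0.52 (adjusted p = 0.0123). Both were several times higher in each UV2 library than in any parental one. Of 15 CXC chemokines and receptors 4 rose, among them Cxcr3, the receptor of interferon-induced chemokines, with 27.9, 20.2 and 23.3 TPM in the UV2 libraries, against 9.22, 5.10 and 2.62 TPM in the parental libraries (2.01 ± 0.47). Its ligands did not pass: Cxcl9 had 319, 160.1 and 545 TPM in the UV2 libraries, against 87.8, 187 and 137 TPM in the parental libraries (adjusted p = 0.116) and Cxcl10 had 705, 263 and 901 TPM in the UV2 libraries, against 78.0, 322 and 239 TPM in the parental libraries (adjusted p = 0.0538), and in both UV2 replicate 2 lay within the parental range. The CC list median was 1.90 without UV2 replicate 3 and 1.5 without parental replicate 3.

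Genes of the type I interferon response were higher in UV2 tumors. Of 38 type I interferon response genes 16 rose and 0 fell, with a median of 0.92, 0.62 without UV2 replicate 3 and 0.86 without parental replicate 3. The count was 10 without a filter, also 10 with only the compared groups in the fit, and 5 without parental replicate 1. Oas1a, an enzyme that activates antiviral RNA decay (chromosome 5, 120896256 to 120907521), had 89.2, 69.2 and 176 TPM in the UV2 libraries, against 28.7, 39.3 and 19.4 TPM in the parental libraries, a log2 fold change of 1.84 ± 0.38 (adjusted p = 0.0135). UV2 replicate 2 was the lowest UV2 library and still above the parental range, as in Slfn1 (2.15 ± 0.43) and Ifi27l2a (2.31 ± 0.46). Of 30 interferon gamma response genes 4 rose, namely Serpina3g, Irf8, Irf1 and Socs1, and 1 fell, Upp1, a uridine phosphorylase (-1.04 ± 0.36), so the share higher was not far from the 9.31% of all tested genes. With a minimum of 5 TPM 7 rose, and with median-of-ratios scaling 7 rose. Without a filter 4 rose, and leaving out parental replicate 1 left 2 that rose. The list median was 0.82. Serpina3g, a protease inhibitor, had 214, 128 and 422 TPM in the UV2 libraries, against 49.1, 53.6 and 34.4 TPM in the parental libraries, a log2 fold change of 2.31 ± 0.40 (adjusted p = 0.0106). Socs1, a feedback inhibitor of cytokine signalling, had 57.0, 47.1 and 90.0 TPM in the UV2 libraries, against 17.7, 18.7 and 26.7 TPM in the parental libraries, a log2 fold change of 1.55 ± 0.36 (adjusted p = 0.0179). Irf1, a transcription factor that carries the interferon gamma response further, had 370.2, 239 and 402 TPM in the UV2 libraries, against 118, 179 and 178 TPM in the parental libraries, a log2 fold change of 1.08 ± 0.27 (adjusted p = 0.0218). All 3 were higher in each UV2 library than in any parental library. Of 20 guanylate-binding protein and immunity-related GTPase genes 2 rose, Gbp1 and Gbp8, a share near the 9.31% of all tested genes. Gbp1 (chromosome 3, 142594847 to 142619179) had 98.6, 20.3 and 149.7 TPM in the UV2 libraries, against 2.53, 3.29 and 0.980 TPM in the parental libraries, the largest log2 fold change of any named gene at 4.46 ± 0.98 (adjusted p = 0.0157), and its UV2 values were widely spread, with replicate 2 far below the other two. Gbp genes are near copies of one another, and how the authors' estimation divided their reads is unknown.

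With limma's library weights the medians of the type I interferon, interferon gamma and GTPase lists were 0.27, 0.01 and -0.24, so the last changed sign and the interferon gamma median came close to 0. Without parental replicate 1 the 3 medians were 0.66, 0.46 and 0.36. Under the isotype antibody the same 3 lists had higher medians than under anti-PD-1, 1.48, 1.20 and 1.39, whereas the T cell, class II and CC chemokine lists had lower ones there, 1.37, 1.62 and 1.17. None of the genes in these lists differed between the antibodies past adjustment over all genes.

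The promoters of the called genes were searched on both strands for the core of the interferon-stimulated response element, which is GAAA followed after any 2 bases by a second GAAA and is bound by interferon regulatory factors, and for the gamma-activated site, TTCNNNGAA, an element of interferon gamma-induced promoters. Matches of the 2 motifs were counted separately and may overlap. The response element core was found in 74 of 977 genes called higher (7.57%), in 52 of 1838 called lower (2.83%) and in 415 of the 10603 tested genes with a promoter in the RefSeq table (3.91%). The gamma-activated site was found in 99 genes called higher (10.1%), in 130 called lower (7.07%) and in 891 of all (8.40%). In the type I interferon list 17 of 29 genes held the response element core (58.6%) and 5 the gamma-activated site (17.2%). In the interferon gamma list 11 of 20 held the core (55%) and 9 the gamma-activated site (45%). In the GTPase list 11 of 11 held the core and 7 the gamma-activated site (63.6%). In the T cell list 0 of 11 held the core and 1 the gamma-activated site (9.09%). The stretches printed here show the matches in genes named above, with the core in capitals for Oas1a (chr5:120907526-120907625, minus strand), Socs1 (chr16:10785565-10785664, minus strand) and Gbp1 (named Gbp2b in RefSeq, chr3:142594665-142594764, plus strand).
Oas1a: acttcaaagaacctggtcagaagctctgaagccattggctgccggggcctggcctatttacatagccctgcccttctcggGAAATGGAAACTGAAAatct
Socs1: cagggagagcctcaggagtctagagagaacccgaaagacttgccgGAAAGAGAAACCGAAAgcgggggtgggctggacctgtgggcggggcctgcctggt
Gbp1: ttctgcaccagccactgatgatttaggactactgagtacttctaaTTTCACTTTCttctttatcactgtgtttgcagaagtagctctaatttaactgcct
In the next ones the capitals mark the gamma-activated site, for Irf1 (chr11:53769879-53769978, plus strand), Irf8 (chr8:120736142-120736241, plus strand) and Serpina3g (chr12:104236047-104236146, plus strand).
Irf1: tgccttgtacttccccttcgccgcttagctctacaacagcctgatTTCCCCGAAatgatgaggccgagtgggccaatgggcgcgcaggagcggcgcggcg
Irf8: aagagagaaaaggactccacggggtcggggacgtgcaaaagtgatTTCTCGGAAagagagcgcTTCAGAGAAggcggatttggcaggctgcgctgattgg
Serpina3g: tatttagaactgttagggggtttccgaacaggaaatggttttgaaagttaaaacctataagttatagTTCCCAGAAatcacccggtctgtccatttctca
In Oas1a and Socs1 the capitals run on because 2 matches overlap, and Irf8 holds 2 separate sites. A match describes the letters only, and all 6 genes were called higher in UV2 tumors by the test above.

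Genes of several tumor growth programmes were lower in UV2 tumors. Of 17 MAPK output genes, targets and feedback inhibitors of the cascade, 10 fell and 0 rose, with a median of -1.45, -1.09 without UV2 replicate 3 and -1.33 without parental replicate 3. Without parental replicate 1 the count lower was 1 (median -1.28), and without UV2 replicate 2 it was 2 (median -1.51). Etv1, a transcription factor induced by the cascade (chromosome 12, 38779380 to 38870484), had 23.4, 10.1 and 14.1 TPM in the UV2 libraries, against 61.8, 63.9 and 83.6 TPM in the parental libraries, a log2 fold change of -2.14 ± 0.55 (adjusted p = 0.0229). Spred1, a feedback inhibitor, had 82.1, 40.5 and 35.8 TPM in the UV2 libraries, against 184, 143 and 194 TPM in the parental libraries, a log2 fold change of -1.78 ± 0.44 (adjusted p = 0.0210), which was -1.15 after centring on transcript length. UV2 replicate 1 was the highest of its group in both and still below the parental range. Dusp6 and Spry1, further feedback inhibitors, and the immediate target Egr1 were not called. Of 30 proliferation genes 13 fell and 0 rose, with a median of -0.61, -0.53 without UV2 replicate 3 and -0.58 without parental replicate 3. Without parental replicate 1, 0 fell (median -0.59), and without UV2 replicate 2, 2 fell. The count lower was 4 without a filter, 5 with quantile normalization, 6 with median-of-ratios scaling (median -0.34), 8 with length centring (median -0.35) and 20 with only the compared groups in the fit. Among them were Mki67, the marker of cycling cells, with 26.8, 18.1 and 16.9 TPM in the UV2 libraries, against 59.5, 29.1 and 55.0 TPM in the parental libraries (-1.14 ± 0.35, adjusted p = 0.0369), and Foxm1, a driver of mitotic gene expression (-1.58 ± 0.42). After centring on transcript length Mki67 no longer passed (-0.34, adjusted p = 0.131). Of 22 dedifferentiated melanoma genes 6 fell and 0 rose (median -0.46), against 17.1% of all tested genes called lower and a median of -0.21. The count lower was 3 without a filter, 3 without UV2 replicate 2 and 0 without parental replicate 1. With median-of-ratios scaling 4 fell (median -0.20), and with length centring 4 fell and 1 rose (median -0.175). Those that fell with all libraries included Vim, the intermediate filament of mesenchymal cells, with 5722, 5764 and 3856 TPM in the UV2 libraries, against 11956, 10113 and 13619 TPM in the parental libraries (-1.23 ± 0.36). Of the melanocyte genes, Mitf, the lineage transcription factor, had 11, 8.83 and 6.98 TPM in the UV2 libraries, against 10.0, 8.23 and 10.4 TPM in the parental libraries and overlapped between the groups (-0.10 ± 0.27, adjusted p = 0.782).

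Hypoxia response genes fell in 14 of 23 cases and rose in 0, with a median of -1.20, -0.96 without UV2 replicate 3, -1.05 without parental replicate 3 and -0.78 after centring on transcript length. Stc2, a secreted glycoprotein induced by low oxygen (chromosome 11, 31357307 to 31370074), had 3.23, 2.15 and 2.52 TPM in the UV2 libraries, against 16.3, 13.8 and 21.2 TPM in the parental libraries, a log2 fold change of -2.31 ± 0.36 (adjusted p = 0.00957). Egln3, an oxygen-sensing prolyl hydroxylase, had 39.4, 42.7 and 19.6 TPM in the UV2 libraries, against 132, 85.6 and 146 TPM in the parental libraries, a log2 fold change of -1.85 ± 0.34 (adjusted p = 0.0108). Vegfa, the growth factor of blood vessels, had 31.6, 33.8 and 17.0 TPM in the UV2 libraries, against 78.7, 61.3 and 103 TPM in the parental libraries, a log2 fold change of -1.55 ± 0.33 (adjusted p = 0.0137). UV2 replicate 3 was the lowest library for Egln3 and Vegfa, and no UV2 library reached the parental range in any of the 3. Glycolysis genes fell in 13 of 19 cases and rose in 0, with a median of -0.81, -0.75 without UV2 replicate 3 and -0.70 without parental replicate 3. With median-of-ratios scaling 5 fell and the median was -0.54. Without parental replicate 1 the count lower was 6 for glycolysis genes and 6 for hypoxia response genes. Eno1, an enolase, had 1254, 697 and 431 TPM in the UV2 libraries, against 2290.1, 1921 and 2386 TPM in the parental libraries, a log2 fold change of -1.60 ± 0.40 (adjusted p = 0.0209). Pkm, the pyruvate kinase of proliferating cells, had 1951, 1791 and 1399 TPM in the UV2 libraries, against 3795, 3350.0 and 4546 TPM in the parental libraries, a log2 fold change of -1.19 ± 0.27 (adjusted p = 0.0166). Spp1, which encodes osteopontin and was the most abundant transcript of all 3 parental libraries, had 12015, 8974 and 13824 TPM in the UV2 libraries, against 23006, 48449 and 44246 TPM in the parental libraries and did not pass (-1.68 ± 0.61, adjusted p = 0.0556).

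Prostaglandin genes moved in both directions, 5 of 19 higher and 5 lower. Among the 5 that fell, Ptgs2, the inducible cyclooxygenase (chromosome 1, 150100031 to 150108227), had 36.7, 38.3 and 6.74 TPM in the UV2 libraries, against 473, 83.0 and 337 TPM in the parental libraries, a log2 fold change of -3.40 ± 0.82 (adjusted p = 0.0197). Akr1c18, which reduces progesterone and prostaglandins (chromosome 13, 4132615 to 4150654), had 6.87, 10.3 and 1.28 TPM in the UV2 libraries, against 107, 35.7 and 129 TPM in the parental libraries, a log2 fold change of -3.77 ± 0.76 (adjusted p = 0.0124). The receptor gene Ptgfr had 7.45, 6.05 and 3.86 TPM in the UV2 libraries, against 41.9, 32.6 and 47.8 TPM in the parental libraries, a log2 fold change of -2.64 ± 0.41 (adjusted p = 0.00927). In each, UV2 replicate 3 was the lowest library and all UV2 libraries were below all parental ones. Tbxas1, the thromboxane synthase of macrophages and platelets, rose, with 50.3, 32.9 and 60.0 TPM in the UV2 libraries, against 13.6, 9.06 and 8.96 TPM in the parental libraries (2.06 ± 0.34), as did the prostaglandin E2 receptor gene Ptger4 (1.17 ± 0.25).

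Among the genes with the lowest fold changes were 3 secreted regulators. Grem1, an antagonist of bone morphogenetic proteins (chromosome 2, 113746164 to 113758646), had 84.8, 48.2 and 8.61 TPM in the UV2 libraries, against 573, 152 and 570.3 TPM in the parental libraries, a log2 fold change of -3.42 ± 0.92 (adjusted p = 0.0250). Inhba, the activin subunit gene, had 12.1, 4.80 and 1.21 TPM in the UV2 libraries, against 57.2, 38.6 and 86.9 TPM in the parental libraries, a log2 fold change of -3.41 ± 0.85 (adjusted p = 0.0213). Dkk2, a Wnt antagonist, had 30.8, 27.9 and 7.62 TPM in the UV2 libraries, against 213, 159.7 and 262 TPM in the parental libraries, a log2 fold change of -3.39 ± 0.85 (adjusted p = 0.0216). UV2 replicate 3 was again the lowest library in all 3, and no groups overlapped. Around them 7 of 25 genes of the TGF-beta, activin and BMP list fell and 1 rose (median -0.36). Of all tested genes 17.1% were called lower. In the list 3 fell without a filter, 4 with either other scaling, and 4 with length centring, where the median was 0.05. Without parental replicate 1 the count lower in this list was 1. In the Wnt list of 15 genes Dkk2 was called and no other, against 2 genes with quantile normalization and 3 with only the compared groups in the fit. Other genes of this end were Dmp1, a bone matrix protein (-3.29 ± 0.96), Atp2a3, a calcium pump (-3.21 ± 0.80), the synaptotagmin gene Syt13 (-3.05 ± 0.47), Zbed6 (-2.95 ± 0.93), Rassf8 (-2.93 ± 0.74) and the cadherin gene Cdh13 (-2.91 ± 0.74). At the other end stood Retnla, a product of alternatively activated macrophages (3.65 ± 1.10), Clec4b1 (3.29 ± 0.75), Klra17 (3.23 ± 0.86), Fam26f (2.91 ± 0.53), the cell cycle inhibitor gene Cdkn1c (2.84 ± 0.89), the sodium pump subunit gene Fxyd2 (2.83 ± 0.49), Plac8 (2.81 ± 0.48), Ear2 (2.80 ± 0.94, adjusted p = 0.0639 after length centring) and Cd3d (2.72 ± 0.59). Genes at both ends were named only where the groups did not overlap, which held for 16.9% of all tested genes in the higher direction and 34.3% in the lower.

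Genes of the sex chromosomes gave some of the clearest differences. All 4 tested Y-linked genes fell, and 2 of them still passed after centring on transcript length. Eif2s3y (chromosome Y, 1010543 to 1028847), a translation initiation factor gene, was listed at 0 in all UV2 libraries, against 9.32, 20.3 and 19.1 TPM in the parental libraries, and Ddx3y, an RNA helicase gene, was listed at 0, against 7.97, 14.6 and 14.9 TPM. Both were also listed at 0 in all 3 UV2 isotype libraries and present in all 3 parental isotype libraries. The recipients were female and carry no Y chromosome. All 5 tested members of the X-linked lymphocyte-regulated family rose, Xlr most and Xlr4b next, with 7.62, 6.16 and 7.85 TPM in the UV2 libraries, against 2.16, 0.670 and 0 TPM in the parental libraries (2.23 ± 0.45), and these genes are near copies of each other. Klhl4, a kelch-like gene on chromosome X, had 10.2, 3.71 and 7.26 TPM in the UV2 libraries, against 1.83, 1.01 and 1.33 TPM in the parental libraries under anti-PD-1, a log2 fold change of 1.68 ± 0.39 (adjusted p = 0.0178), against 3.38 under isotype. In all, 14 genes were listed at 0 in every UV2 library and above 0 in every parental one, and 173 showed the reverse. Of these only 5 of the 14 and 11 of the 173 reached the level needed for testing. Klra33 was one of the 14, with 33.7, 15.3 and 17.3 TPM in the parental libraries, and Tgoln2 another, with 25.0, 6.62 and 23.4 TPM. Unlike the Y-linked genes, both were present in some UV2 isotype libraries. Klra33 had 6.19, 0 and 8.58 TPM and Tgoln2 5.86, 0 and 18.95 TPM in UV2 isotype replicates 1 to 3. Tgoln2 was also listed at 0 in parental isotype replicate 3. Tgoln1, a near copy of Tgoln2, was expressed in both groups, at 65.0, 46.0 and 35.2 TPM in the UV2 libraries, against 74.0, 52.8 and 57.1 TPM in the parental libraries, and a value of 0 can stand for a failed estimate, so no fold change is given.

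**Figure D3:**
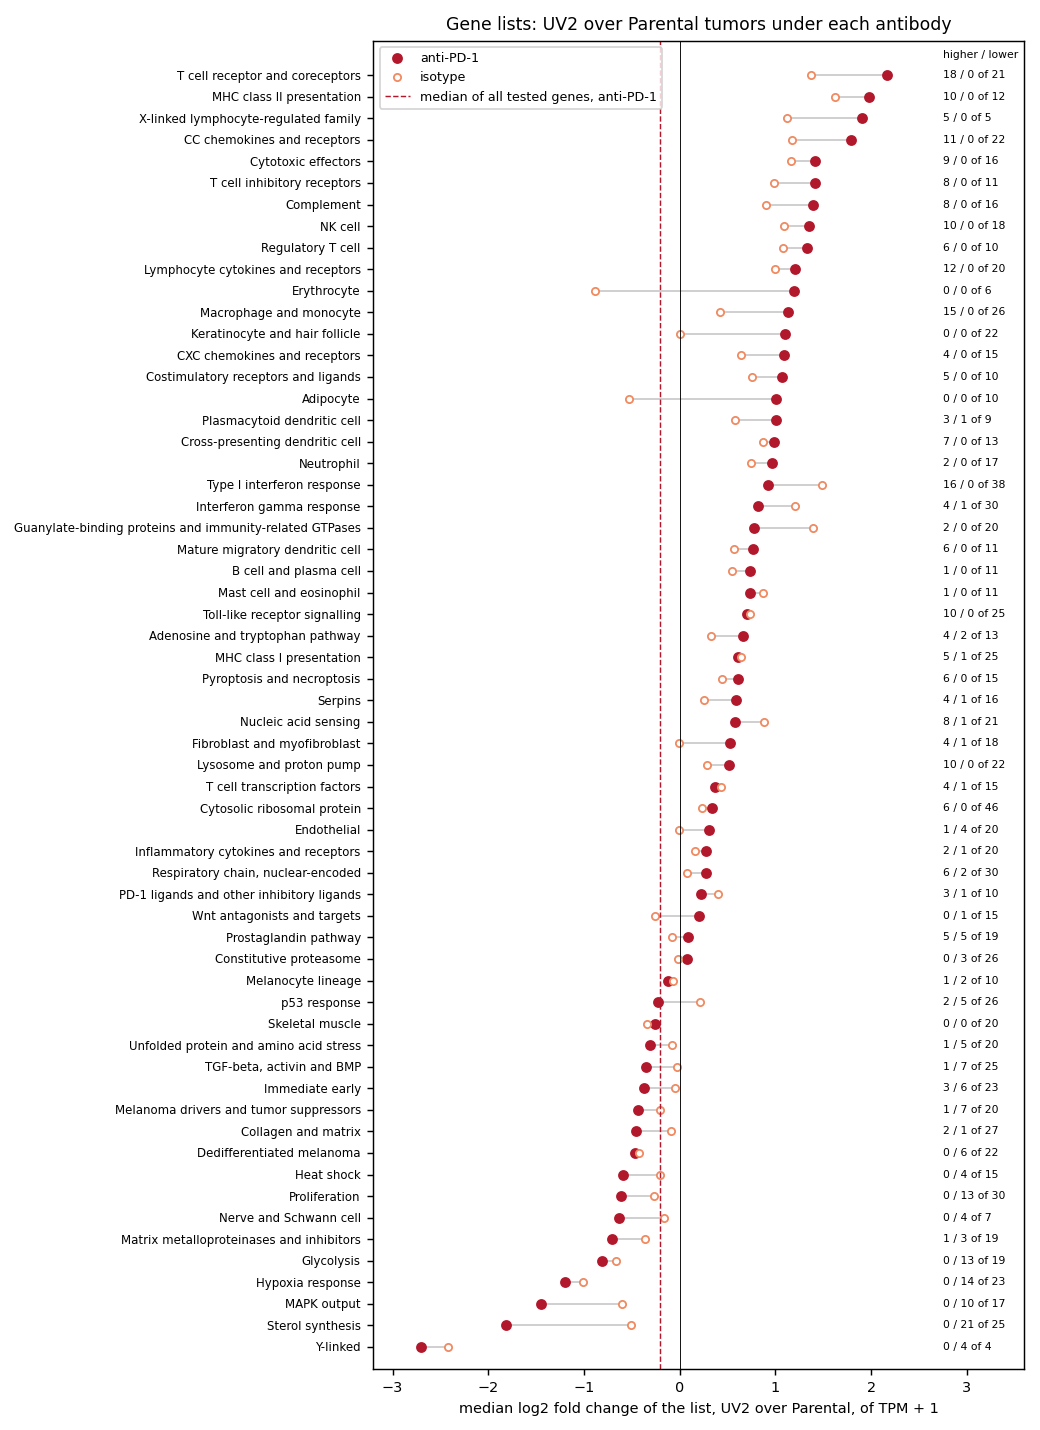
Median log2 fold change of each gene list, UV2 over parental tumors, under anti-PD-1 (filled) and under isotype (open), with the number of members called higher and lower under anti-PD-1 at the right. The dashed line is the median of all tested genes under anti-PD-1, -0.21, and the lists run from the T cell receptor list at 2.17 to the Y-linked list at -2.70.

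Set beside the isotype tumors, the line difference under anti-PD-1 ran in the same direction. UV2 isotype against parental isotype tumors, which share no library with the comparison above, gave 176 called genes (1.29%), of which 123 were higher and 53 lower. An unadjusted p under 0.05 was reached by 2418 genes, and the median over all genes was -0.04. Of the 1265 genes called higher under anti-PD-1, 1245 were also positive under isotype (98.4%, against 45% of all tested genes). Of the 2321 called lower, 2273 were also negative (97.9%, against 54.6% of all). Across genes the 2 sets of log2 fold changes correlated at r = 0.773, a description over genes that share libraries and are not independent. Called in both comparisons and in the same direction were 94 genes higher and 49 lower, which is 3.99% of the calls under anti-PD-1 and 81.2% of those under isotype. The median log2 fold change of the genes called higher was 1.18 under anti-PD-1 and 0.76 under isotype, and that of the genes called lower was -1.02 and -0.48. These genes were picked by their anti-PD-1 values, so the size of that gap is not evidence of a difference. The difference itself was tested gene by gene: 0 of 13592 genes passed by limma, the smallest adjusted p was 0.800, and 404 genes had an unadjusted p under 0.05. Among individual genes, Cd8b1 had 7.37, 60.9 and 46.8 TPM in UV2 isotype replicates 1 to 3, against 7.83, 5.59 and 21.6 TPM in parental isotype replicates 1 to 3, so UV2 isotype replicate 1 fell within the parental isotype range while the other UV2 isotype libraries were above it. H2-Aa had 763, 3321 and 2689.9 TPM in UV2 isotype replicates 1 to 3, against 419, 349 and 1451 TPM in parental isotype replicates 1 to 3, so again UV2 isotype replicate 1 lay within the parental isotype range and the other UV2 isotype libraries above it.

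**Figure D4:**
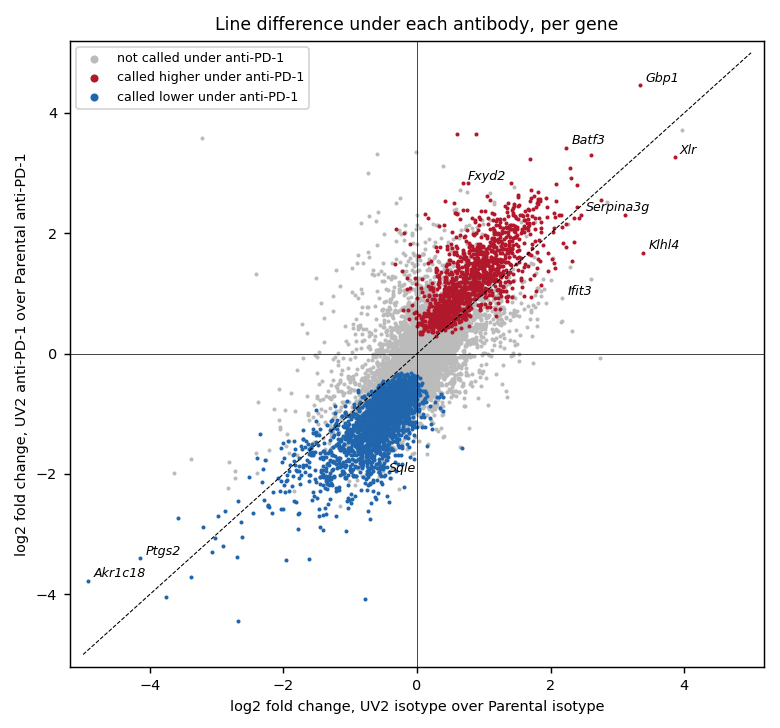
Log2 fold change of TPM + 1 for UV2 over parental tumors under isotype (x axis) and under anti-PD-1 (y axis) for the 13592 tested genes, with genes called under anti-PD-1 coloured and a dashed line where the fold changes are equal. Points called higher lie mostly in the upper right and points called lower mostly in the lower left, with a correlation of 0.773 across genes.

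The called genes also differed in transcript length. Among 13008 protein-coding genes with a GENCODE transcript, ordered into 5 groups of nearly equal size, the shortest group had 19.2% of its genes called higher and 4.95% called lower, and the longest had 2.15% called higher and 28.3% called lower. Their median log2 fold changes were 0.24 and -0.66 under anti-PD-1, and 0.12 and -0.20 under isotype. Across genes, fold change and length had a Spearman correlation of -0.441. Relative to the mean of the 6 anti-PD-1 libraries, genes of the longest group lay at 0.03, -0.38 and -0.65 in UV2 replicates 1 to 3, against 0.55, 0.05 and 0.42 in parental replicates 1 to 3, so the trend was strongest in UV2 replicate 3 and parental replicate 1. When each library was centred within 20 bins of transcript length, an alternative added after the data were seen, 3717 genes were called, 1940 higher and 1777 lower. Of these, 2630 were among the 3586 called without centring, and 38 of the 3586 had the opposite sign. Genes of the T cell list had a median of 2.22 in that fit. Of 223 named genes called with all libraries, 200 were also called after centring and 23 were not.

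**Figure D5:**
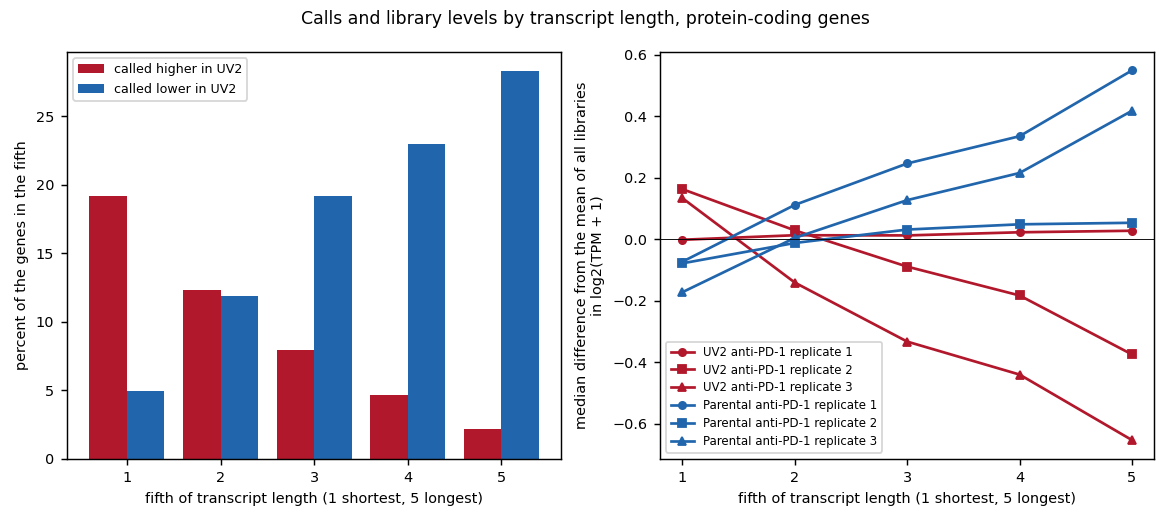
Share of genes called higher and lower in 5 groups of transcript length (bars, in percent) and the median level of each library relative to the mean of the 6 anti-PD-1 libraries on the log2 scale (lines). The share called lower climbs to 28.3% in the longest group, and UV2 replicate 3 lies lowest there at -0.65.

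By chromosome, leaving out Y, the share of genes called higher ran from 4.34% on chromosome 18 to 15.1% on chromosome 6, against 9.31% of all tested genes. Chromosome 6 holds the NK receptor gene Klrk1 and both CD8 genes, and their part in its share was not tested. The share called lower ran from 12.2% on chromosome 17 to 23.4% on chromosome 18, with 23.3% on chromosome 19, against 17.1% of all.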

How the data were processed

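The authors deposited 1 table of TPM values per gene symbol for all 15 libraries, made with Bowtie2 and RSEM on mm10/GRCm38 per the submitters' processing notes, which give no versions. RSEM divides reads among similar genes, so near-identical families are uncertain. No depth can be recovered from TPM, and 0 columns were left unused. One limma model (limma 3.58.1, R 4.3.3; lmFit, contrasts.fit, eBayes with trend and robust) with a coefficient for each of 5 groups was fitted to log2(TPM + 1) of all 15 libraries, leaving 10 residual degrees of freedom. It gave the line contrast under anti-PD-1, the same under isotype, and their difference, each two-sided. The code was tested on simulated data.

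The comparison, the 60 gene lists and the named genes were chosen with earlier results of these data known. Named were the 15 highest and 15 lowest called genes with separate groups and a mean of at least 5 TPM in the higher group, leaving out predicted genes and receptor segments, then up to 4 called members of each list by smallest p, and a set of fixed genes. Lists were described by counts and medians without a test. Positions come from GENCODE M21 (GRCm38; 98.9% of tested genes) and promoters from RefSeq GRCm38.p6. Alternatives were a pseudocount of 0.1, no filter, a minimum of 5 TPM, median-of-ratios and quantile scaling, the compared groups alone, a replicate block, library weights, a muscle covariate, and leaving out each library. Length centring was added after seeing the data. No pair of libraries held identical values (0 pairs). Triple therapy libraries entered the filter and the estimate of spread, and no contrast. Some genes are not reported here.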

Additional observations from a re-analysis of the deposited data

How the results depend on the processing

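The count of genes called under anti-PD-1, 3586, was 3546 with a pseudocount of 0.1, 2512 without a filter, 3622 with the stricter filter, 3753 with median-of-ratios scaling, 4102 with quantile normalization, 4012 with only the compared groups, 3695 with the muscle covariate, 3717 with length centring and 9262 with library weights, and it ranged from 9 to 4074 when 1 library was left out. The isotype count of 176 was 82 without a filter, 3704 with library weights, 471 with length centring and 21 with only the compared groups, and 3 to 458 with 1 library left out. Its split of 123 higher and 53 lower was 65 and 82 with median-of-ratios scaling and 72 and 70 with quantile normalization. The count for the difference between antibodies was 1303 with library weights, and the cause of these changes was not tested. Same-numbered libraries were not treated as pairs in the main fit. Deviations from the group means correlated at 0.155, -0.337 and -0.062 between same-numbered UV2 and parental anti-PD-1 libraries. Over the 18 same-number pairs of the 4 groups they ran from -0.542 to 0.47. Whether same-numbered libraries shared a batch cannot be told from so few libraries. A replicate block gave 2526 calls under anti-PD-1, 37 under isotype and 0 for the difference. Under the block 4 proliferation genes, 3 dedifferentiated melanoma genes and 3 of the TGF-beta list fell, and 8 class I genes, 2 respiratory chain genes and 3 ribosomal protein genes rose. Among named genes 3 changed sign, none of them called: B2m (0.29) was -0.039 with library weights and -0.10 with length centring. Cd274 (0.18) was -0.49 with weights and ranged from -0.10 to 0.45 with 1 library left out. Mitf (-0.10) was 0.14 with median-of-ratios scaling, 0.18 with quantile normalization and 0.37 with length centring, and ranged from -0.25 to 0.046 with 1 library left out. Of 223 named genes called, 188 were called without a filter, 210 with median-of-ratios scaling, 200 with the block and 5 to 203 with 1 library left out. Xlr, Sc4mol, Cyp51, Sqle and Idi1 were called under all 16 alternatives. Read depth is unknown, so counting error cannot be given, and values under 1 TPM are the least certain.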

Other observations

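Organelle and housekeeping groups are given against 9.31% of all tested genes called higher and 17.1% called lower. Of 46 cytosolic ribosomal protein genes 6 rose and 0 fell, with a median log2 fold change of 0.34 against -0.21 over all genes, and Rps13 had 1372, 1697 and 1764 TPM in the UV2 libraries, against 891, 1213 and 960.4 TPM in the parental libraries (0.66 ± 0.20). These transcripts are short, and the shortest of 5 length groups of protein-coding genes had a median of 0.24. After centring on transcript length 1 ribosomal protein gene rose and the list median was 0.09, and with quantile normalization 2 rose and 2 fell. Of 30 nuclear-encoded respiratory chain genes 6 rose and 2 fell, and without a filter 0 rose. Of 22 lysosome and proton pump genes 10 rose and 0 fell, among them the macrophage protease gene Ctsh, with 559, 495 and 494 TPM in the UV2 libraries, against 207, 159 and 112 TPM in the parental libraries (1.73 ± 0.38). Of 26 constitutive proteasome genes 3 fell and 0 rose. Of 15 heat shock genes 4 fell and 0 rose (2 fell with median-of-ratios scaling), with Hspb7, a small heat shock protein of muscle, at 3.48, 7.45 and 9.06 TPM in the UV2 libraries, against 43.3, 46.2 and 52.3 TPM in the parental libraries (-2.73 ± 0.61). In the amino acid and unfolded protein stress list 5 of 20 fell and 1 rose (3 fell without a filter), and those that fell included Asns, asparagine synthetase, with 30.9, 29.6 and 23.2 TPM in the UV2 libraries, against 55.5, 61.8 and 67.3 TPM in the parental libraries (-1.12 ± 0.21).

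Sensors of innate immunity were higher in UV2 tumors. Of 25 Toll-like receptor signalling genes 10 rose and 0 fell, including Unc93b1, which carries the nucleic acid sensing receptors to endosomes, with 609, 442 and 544 TPM in the UV2 libraries, against 184, 145 and 81.2 TPM in the parental libraries (2.02 ± 0.34). Of 21 genes of nucleic acid sensing 8 rose and 1 fell, with Trex1, a DNA exonuclease, at 1.33 ± 0.24. Pycard, the inflammasome adaptor, had 75.1, 64.9 and 125 TPM in the UV2 libraries, against 18.7, 19 and 12.9 TPM in the parental libraries (2.28 ± 0.40), and 6 of 15 pyroptosis and necroptosis genes rose, or 3 without a filter. In the p53 list 2 of 26 genes rose and 5 fell, shares near those of all tested genes. The death receptor gene Fas had 24.9, 19 and 28 TPM in the UV2 libraries, against 7.78, 9.95 and 10.6 TPM in the parental libraries (1.25 ± 0.19), and the cell cycle inhibitor gene Cdkn1a had 124, 132 and 105 TPM in the UV2 libraries, against 259, 185 and 251 TPM in the parental libraries (-0.93 ± 0.17). Of 27 collagen and matrix genes 2 rose and 1 fell, smaller shares than among all tested genes, with Postn higher (1.69 ± 0.55) and Col6a3 lower (-1.60 ± 0.51, -0.79 after length centring). Among fibroblast genes 4 of 18 rose, including Mfap5, at 169, 233 and 115 TPM in the UV2 libraries, against 98.3, 17.2 and 13.0 TPM in the parental libraries (2.50 ± 0.65), and Pdgfra fell (-1.15 ± 0.35), though not after length centring (-0.40, adjusted p = 0.110). The count of fibroblast genes higher was 0 without UV2 replicate 2 and 0 without parental replicate 2. It was 4 without UV2 replicate 1 and 6 without parental replicate 1. All genes named here were called by limma at an adjusted p under 0.05 with all libraries, and none of their lists held a called gene without UV2 replicate 3 or without parental replicate 3. The 4 tissue lists of keratinocytes, skeletal muscle, adipocytes and erythrocytes held 0 called genes of 22, 20, 10 and 6.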
